A study of Mus musculus with 6 samples.

Results

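The 9 genes described here carry the first steps of endotoxin sensing: the receptor genes Tlr4, Cd14, Ly96, Lbp and Tlr2, the adaptor genes Myd88, Tirap and Ticam1, and Irak3, a brake on the same route. A probe belonged to a gene when the RefSeq transcript it was annotated with belonged to that gene, which gave 14 probes, and the brightest probe of each gene was used. All 9 genes were among the 17516 named genes, and the 32456 named genes and unnamed probes together, that could be tested. The values come from the lungs of 6 male C57BL6 mice aged 10 weeks, 1 array per mouse. Each mouse went 16 h without food, received lipopolysaccharide at 20 mg/kg into the peritoneum, and had its lung RNA measured at 30 h. At 3 h and 24 h, 3 mice received saline and 3 received recombinant antithrombin, the plasma inhibitor of thrombin, at 750 IU/kg. Mice that received no lipopolysaccharide were not analysed here, and every value compares antithrombin with saline under endotoxin.

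Lipopolysaccharide is the endotoxin of the Gram-negative outer membrane. LBP, a protein made largely by the liver, passes it to CD14, which hands it to the complex of TLR4 and MD-2, the product of Ly96. The receptor signals through TIRAP and MYD88 from the plasma membrane and through TRIF, the product of Ticam1, from endosomes. IRAK3, also called IRAK-M, holds back the MYD88 branch and is known for its role in endotoxin tolerance of macrophages.

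A level is given as log2 signal relative to the 75th percentile of its array, and a difference is antithrombin minus saline on the log2 scale with its standard error (SE) from limma. Levels of different probes cannot be set against each other. All 14 probes of the 9 genes were detected well above background on all 6 arrays, and no spot was saturated. On each array taken singly, the share of all probes so detected ran from 69.8% to 72.1%, and the share detected on all 6 is not given. The alveolar type 2 cell gene Sftpc, a marker of lung, lay at 9.19, 9.39 and 9.23 in saline mice 1, 2 and 3 and at 9.04, 9.11 and 9.42 in antithrombin mice 1, 2 and 3. One array stood apart from its group: on the first principal component, with 51.9% of the variance, saline mouse 2 lay at 7.86, the other saline mice at -48.3 and -62.4, and the antithrombin mice between 24.9 and 49.5. Results that rest on saline mouse 2 are therefore given with and without it. Because it resembled the antithrombin arrays most among the saline arrays, leaving it out widens the gap between groups by its choice alone and gives no separate support. In whole lung, fewer cells of a type and less RNA per cell cannot be told apart.

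None of the 9 genes passed the test between treatments. At an adjusted p under 0.05 the count was 0 of 9, where 0.00616% of all tested genes and unnamed probes passed (limma), and at an unadjusted p under 0.05 it was also 0 of 9, where 21.6% did. The median difference of the 9 genes was 0.17, against -0.05 over everything tested, and 5 of the 9 differences were positive, where 43% of everything tested was. The median was 0.01 with the mean of all detected probes of a gene, and 0.05 without saline mouse 3. Irak3 had the largest difference in size, 0.61 (SE 0.29), and Ly96 the largest negative one, -0.46 (SE 0.22). In 1 of the 9 genes, Tlr4, the antithrombin mice all lay above the saline mice, where 10.7% of everything tested was apart in that direction, and in 0 of 9 they all lay below, where 18.1% was.

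**Figure D1:**
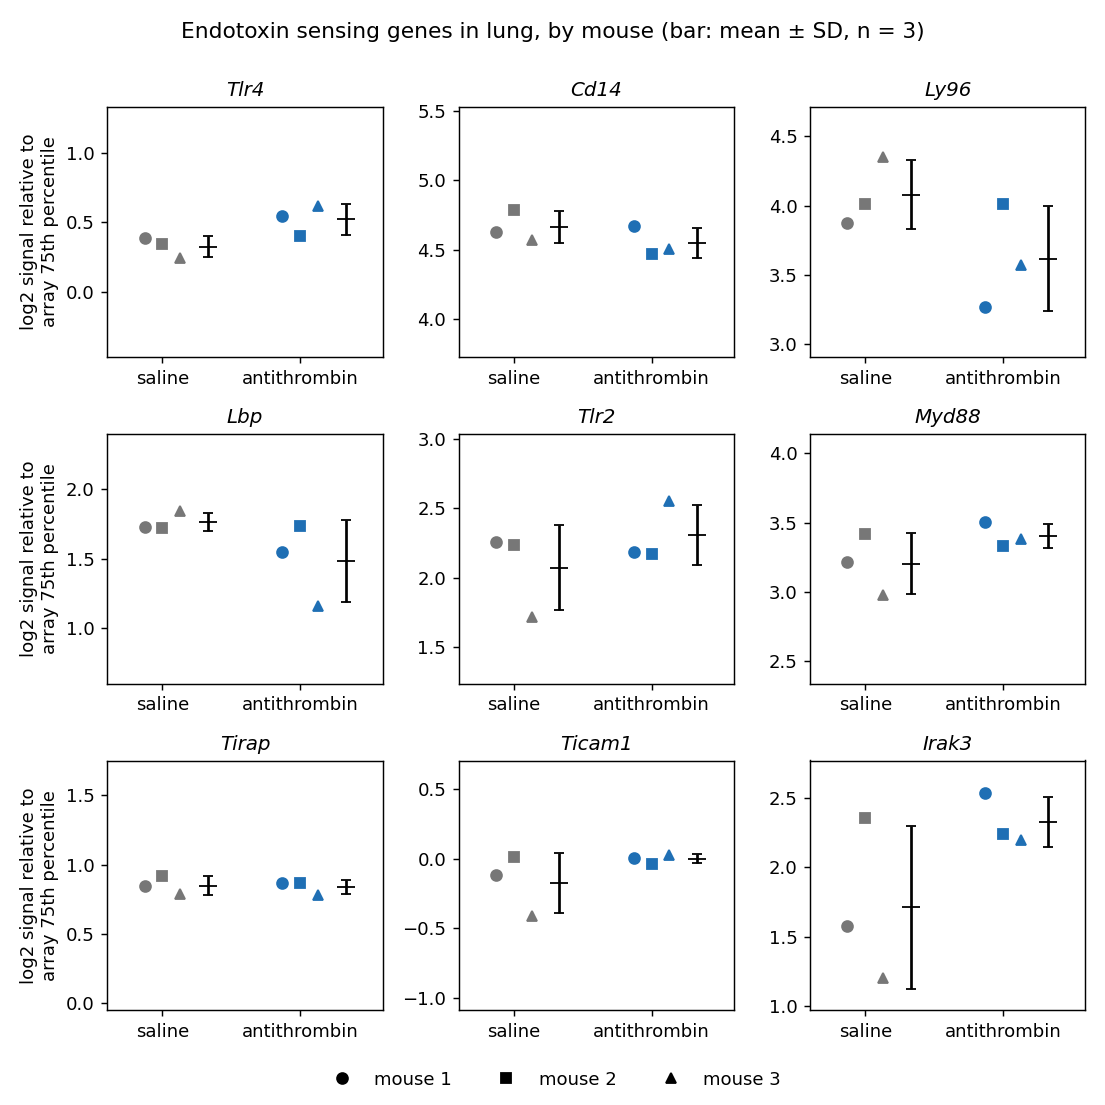
Log2 signal of the 9 genes relative to the 75th percentile of each array, 1 point per mouse, with saline in grey, antithrombin in blue and bars at the mean ± SD of 3 mice. Every panel spans the same number of log2 units; Tlr4 alone shows no overlap, and saline mouse 2 sits among the antithrombin mice for Irak3.

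Tlr4, the signalling receptor for lipopolysaccharide, lay at 0.39, 0.34 and 0.24 in saline mice 1, 2 and 3 and at 0.55, 0.40 and 0.62 in antithrombin mice 1, 2 and 3. The groups did not overlap, although antithrombin mouse 2 lay just above saline mouse 1. The mean was 0.32 ± 0.07 (SD, n = 3) after saline and 0.52 ± 0.11 (SD, n = 3) after antithrombin. The difference of 0.20 (SE 0.11, 95% interval -0.07 to 0.46) equals 1.15-fold, with an interval of 0.955-fold to 1.38-fold, and did not pass (limma adjusted p = 0.328). A dimmer probe for the same Tlr4 transcript gave -0.17 (SE 0.14, 95% interval -0.50 to 0.17), so the separation was seen with 1 of 2 probes. On that probe saline mouse 2, at -3.86, was the highest of the 6, and the other 5 mice lay between -4.31 and -4.20. With the mean of both probes the Tlr4 difference was 0.01.

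Cd14, the coreceptor that transfers lipopolysaccharide, lay at 4.63, 4.79 and 4.57 in the saline mice and at 4.67, 4.47 and 4.51 in the antithrombin mice. The groups overlapped, with saline mouse 2 highest and antithrombin mouse 2 lowest. The mean was 4.66 ± 0.11 (SD, n = 3) after saline and 4.55 ± 0.11 (SD, n = 3) after antithrombin, a difference of -0.11 (SE 0.12, 95% interval -0.39 to 0.16). In fold terms the interval ran from 0.762-fold to 1.12-fold (limma adjusted p = 0.577). A second Cd14 probe gave -0.10 (SE 0.14), so both probes gave a small negative difference that did not exceed its error.

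Ly96, which encodes the MD-2 protein that binds the lipid part of endotoxin next to TLR4, lay at 3.87, 4.01 and 4.35 in the saline mice and at 3.27, 4.01 and 3.58 in the antithrombin mice. Antithrombin mice 1 and 3 were below every saline mouse, while antithrombin mouse 2 was level with saline mouse 2, so the groups overlapped. The mean was 4.08 ± 0.25 (SD, n = 3) after saline and 3.62 ± 0.38 (SD, n = 3) after antithrombin. The difference of -0.46 (SE 0.22, 95% interval -0.99 to 0.07) equals 1.38-fold lower, and the interval reached from 1.98-fold lower to 1.05-fold higher (limma adjusted p = 0.271). Its other probe, annotated with a different Ly96 transcript, gave 0.07 (SE 0.15, 95% interval -0.28 to 0.42), with saline mouse 3 lowest at -1.89 where it had been highest on the brighter probe. With the mean of both probes the Ly96 difference was -0.20, and on the brighter probe it was -0.28 without antithrombin mouse 1.

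Lbp, the plasma carrier that extracts lipopolysaccharide from membranes, lay at 1.73, 1.72 and 1.84 in the saline mice and at 1.55, 1.74 and 1.16 in the antithrombin mice. The saline mice were close together, and antithrombin mouse 3 was the lowest of the 6 by a wide margin. Antithrombin mouse 2 lay inside the saline range, so the groups overlapped. The mean was 1.76 ± 0.07 (SD, n = 3) after saline and 1.48 ± 0.30 (SD, n = 3) after antithrombin, a difference of -0.28 (SE 0.16, 95% interval -0.67 to 0.11) that did not pass (limma adjusted p = 0.343). Antithrombin mouse 3 was also the lowest on hepatocyte genes, with a mean level of -0.57 relative to the saline mean, where the other antithrombin mice lay at -0.02 and 0.03 and the saline mice between -0.10 and 0.18. That score came mostly from 1 gene, Tat, at -2.66 in antithrombin mouse 3 against a saline mean of -0.84, while the mouse was not the lowest on Alb, Cyp2e1 or Serpina1a. Only 4 of the 8 hepatocyte genes could be tested, since Apoa1, Ttr, Fgb and Apoh were well above background on fewer than 3 arrays. The part of this list in the Lbp value was not tested.

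Tlr2, the receptor for bacterial lipoproteins, lay at 2.26, 2.24 and 1.72 in the saline mice and at 2.19, 2.17 and 2.55 in the antithrombin mice. Mouse 3 of each group stood apart from its fellows, lowest of all in the saline group and highest of all in the antithrombin group, and the remaining 4 mice lay in a narrow band where the groups overlapped. The mean was 2.07 ± 0.31 (SD, n = 3) after saline and 2.30 ± 0.22 (SD, n = 3) after antithrombin. The difference was 0.23 (SE 0.19, 95% interval -0.22 to 0.69; limma adjusted p = 0.487), or 1.17-fold with an interval of 0.857-fold to 1.61-fold.

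The 3 adaptor genes differed by at most 0.20 in size. Myd88, the adaptor shared by most Toll-like receptors and the interleukin-1 receptor, lay at 3.21, 3.42 and 2.98 in the saline mice and at 3.50, 3.33 and 3.39 in the antithrombin mice. Saline mouse 2 lay inside the antithrombin range, and the other saline mice lay below it. The mean was 3.20 ± 0.22 (SD, n = 3) after saline and 3.41 ± 0.09 (SD, n = 3) after antithrombin, a difference of 0.20 (SE 0.14, 95% interval -0.13 to 0.54; limma adjusted p = 0.415).

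Tirap, which bridges TLR4 and TLR2 to MYD88 at the membrane, lay at 0.84, 0.92 and 0.79 in the saline mice and at 0.87, 0.87 and 0.78 in the antithrombin mice. All 6 mice overlapped, and the mean was 0.85 ± 0.07 (SD, n = 3) after saline and 0.84 ± 0.05 (SD, n = 3) after antithrombin. Tirap had the smallest difference in size of the 9 genes, -0.01 (SE 0.10). In fold terms its 95% interval ran from 0.842-fold to 1.17-fold (limma adjusted p = 0.969).

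Ticam1, which encodes the TRIF adaptor of TLR3 and TLR4, lay at -0.11, 0.01 and -0.41 in the saline mice and at 0.01, -0.03 and 0.03 in the antithrombin mice. The antithrombin mice were nearly level, while the saline mice were spread, with mouse 3 lowest and mouse 2 inside the antithrombin range, so the groups overlapped. The mean was -0.17 ± 0.22 (SD, n = 3) after saline and 0.00 ± 0.03 (SD, n = 3) after antithrombin, a difference of 0.17 (SE 0.14, 95% interval -0.15 to 0.50; limma adjusted p = 0.464).

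**Figure D2:**
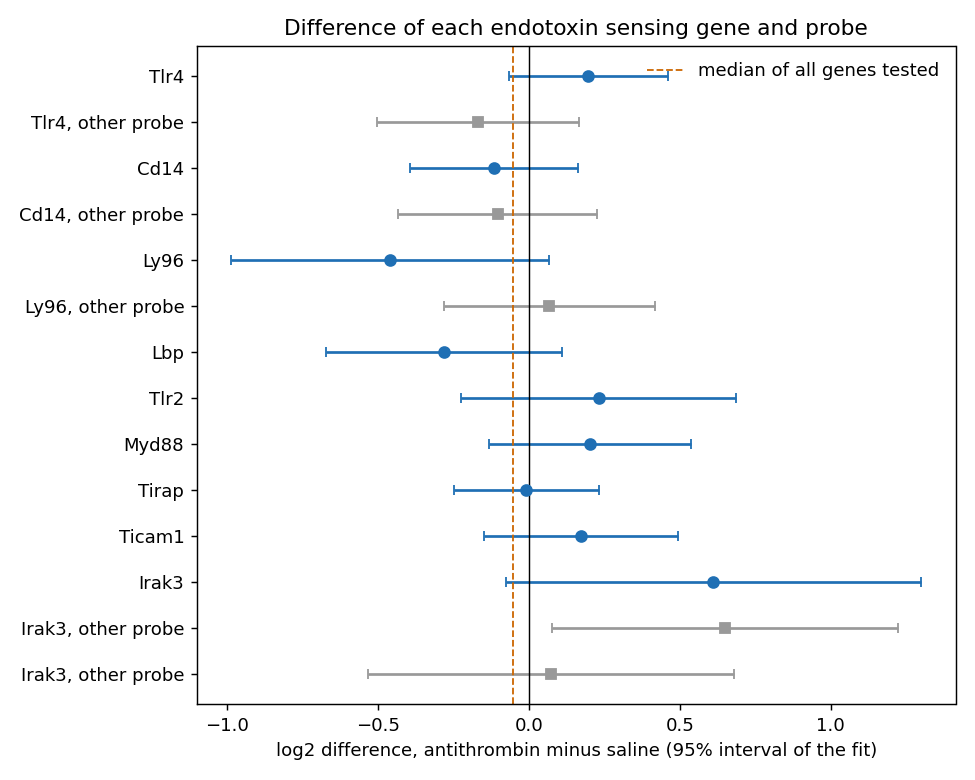
Log2 difference, antithrombin minus saline, of the 9 genes (blue points) and of their other probes (grey squares), with 95% intervals from limma and a dashed line at -0.05, the median of everything tested. Of the 14 intervals, that of 1 probe of Irak3, from 0.08 to 1.22, lies on one side of 0.

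Irak3, the inhibitory kinase family member, lay at 1.58, 2.35 and 1.20 in the saline mice and at 2.53, 2.24 and 2.20 in the antithrombin mice. Saline mice 1 and 3 were below every antithrombin mouse, and saline mouse 2 lay among them, so the groups overlapped. The mean was 1.71 ± 0.59 (SD, n = 3) after saline and 2.32 ± 0.18 (SD, n = 3) after antithrombin. The difference of 0.61 (SE 0.29, 95% interval -0.08 to 1.30) equals 1.53-fold, with an interval of 0.949-fold to 2.46-fold, and did not pass (limma adjusted p = 0.265).

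Irak3 was represented by 3 probes, all annotated with the same transcript. The second probe lay at -0.53, 0.21 and -0.60 in the saline mice and at 0.58, 0.30 and 0.14 in the antithrombin mice. As on the brightest probe, saline mouse 2 overlapped the antithrombin mice and the other saline mice were below, and the difference was 0.65 (SE 0.24, 95% interval 0.08 to 1.22; limma adjusted p = 0.194). The dimmest probe lay at -1.41, -0.41 and -0.95 in the saline mice and at -0.62, -0.99 and -0.93 in the antithrombin mice. On it the groups were mixed, with saline mouse 2 highest and saline mouse 1 lowest, and the difference was 0.07 (SE 0.26). The mean of the detected probes gave 0.45 for Irak3.

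**Figure D3:**
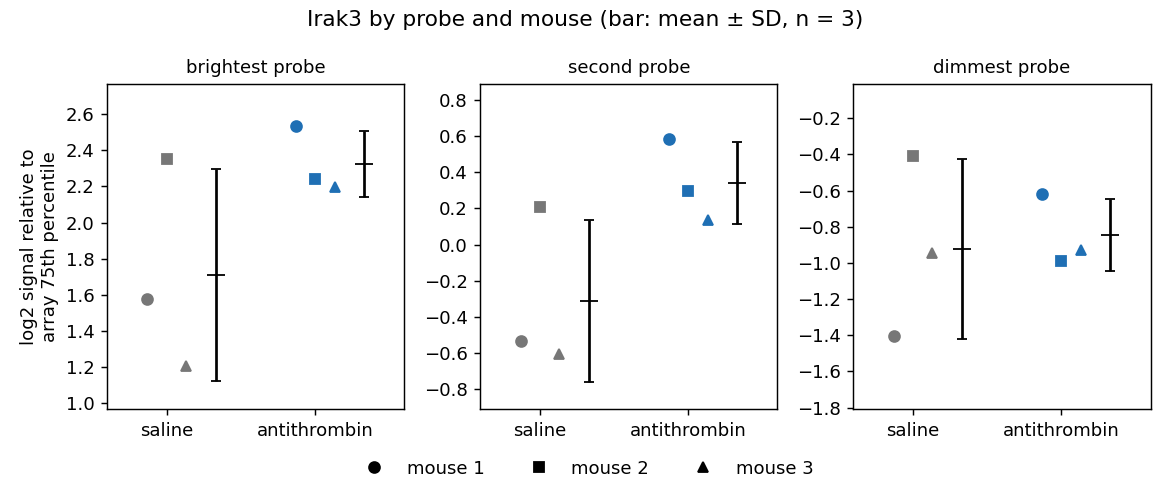
Log2 signal of the 3 Irak3 probes relative to the 75th percentile of each array, 1 point per mouse, with bars at the mean ± SD of 3 mice. Saline mouse 2 lies above the other saline mice on each probe, and the mean difference runs from 0.65 on the second probe to 0.07 on the dimmest.

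Without saline mouse 2, Irak3 was higher after antithrombin by 0.93 (SE 0.17, 95% interval 0.51 to 1.36) and passed (limma adjusted p = 0.0359). It was then the 1 gene of 9 called, where 4.65% of everything tested was called higher. Its second probe gave 0.91 (adjusted p = 0.0318) and its dimmest probe 0.33 (adjusted p = 0.292) without that mouse. Without saline mouse 3 the Irak3 difference was 0.36 with all antithrombin mice kept, so the size of the value rests on which saline mice are counted. Without saline mouse 2, 4 of the 9 genes had all antithrombin mice above the remaining saline mice, Tlr4, Myd88, Ticam1 and Irak3, where 21.2% of everything tested did. The Myd88 difference was then 0.31 (SE 0.13, adjusted p = 0.162) and the Ticam1 difference 0.26 (adjusted p = 0.223), while Ly96 stood at -0.49 (adjusted p = 0.256).

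Saline mouse 3 held the lowest level of the 6 mice in 5 of the 9 genes, Tlr4, Tlr2, Myd88, Ticam1 and Irak3, where it was lowest in 21.5% of everything tested with a value on each array. It held the highest level in Ly96 and Lbp, where it was highest in 26.9%. Cd14 and Tirap were highest in saline mouse 2, which was highest in 14.3%. The lowest mouse for Ly96 was antithrombin mouse 1 and for Cd14 antithrombin mouse 2. The 5 genes that were lowest in saline mouse 3 were also the 5 with a positive difference. In part this follows by construction, since a low value in a saline mouse lowers the saline mean and raises the difference.

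Promoter sequence was read for 4 of those 5 genes, and it is shown because these genes shared their lowest mouse, saline mouse 3. RefSeq promoter windows were read for 5 of the 9 genes, Tlr2, Myd88, Tirap, Ticam1 and Irak3, and these came to 7 windows. Each ran from 250 bases before to 50 bases after a transcript start on GRCm38.p6. No window was read for Tlr4, Cd14, Ly96 and Lbp, so nothing is said here about motifs in their promoters. The windows below are on the minus strand, 5′ to 3′: Tlr2 at chr3:83841559-83841858, Myd88 at chr9:119339969-119340268, Ticam1 at chr17:56276718-56277017, and Irak3 at chr10:120201548-120201847 (start 1) and chr10:120202081-120202380 (start 2). Capitals mark matches to the kappa-B motif, the binding pattern of NF-kappa-B, searched on both strands.
Tlr2: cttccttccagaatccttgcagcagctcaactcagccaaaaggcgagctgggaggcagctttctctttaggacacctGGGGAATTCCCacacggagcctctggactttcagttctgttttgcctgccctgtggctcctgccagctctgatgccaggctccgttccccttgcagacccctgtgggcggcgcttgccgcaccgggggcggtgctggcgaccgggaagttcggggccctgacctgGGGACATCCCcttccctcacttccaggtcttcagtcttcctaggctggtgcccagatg
Myd88: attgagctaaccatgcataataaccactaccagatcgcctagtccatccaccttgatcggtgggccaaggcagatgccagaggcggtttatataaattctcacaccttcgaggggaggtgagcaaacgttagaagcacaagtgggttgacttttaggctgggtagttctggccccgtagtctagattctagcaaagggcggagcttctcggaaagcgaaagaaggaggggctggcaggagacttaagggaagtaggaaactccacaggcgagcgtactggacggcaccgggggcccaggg
Ticam1: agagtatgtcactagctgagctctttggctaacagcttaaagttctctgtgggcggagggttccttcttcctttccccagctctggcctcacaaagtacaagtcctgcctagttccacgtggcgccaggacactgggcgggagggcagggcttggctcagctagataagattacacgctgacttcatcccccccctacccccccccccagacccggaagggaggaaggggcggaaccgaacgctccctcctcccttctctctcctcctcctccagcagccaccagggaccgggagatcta
Irak3 start 1: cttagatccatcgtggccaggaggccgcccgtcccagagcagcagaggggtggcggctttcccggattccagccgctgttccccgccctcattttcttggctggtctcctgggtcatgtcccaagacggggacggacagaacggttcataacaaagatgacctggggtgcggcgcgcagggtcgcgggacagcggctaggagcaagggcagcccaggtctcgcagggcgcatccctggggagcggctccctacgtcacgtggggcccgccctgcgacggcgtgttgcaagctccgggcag
Irak3 start 2: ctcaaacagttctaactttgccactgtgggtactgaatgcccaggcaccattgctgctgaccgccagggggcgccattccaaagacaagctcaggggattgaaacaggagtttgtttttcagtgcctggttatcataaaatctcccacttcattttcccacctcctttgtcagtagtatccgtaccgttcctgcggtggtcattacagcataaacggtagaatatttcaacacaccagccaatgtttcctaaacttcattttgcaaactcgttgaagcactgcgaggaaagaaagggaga
The Tlr2 window held 3 kappa-B matches. GGGGAATTCC began 173 bases before the start and GGGAATTCCC, which overlaps it, 172 bases before. GGGACATCCC began 8 bases before the start. The windows of Myd88, Tirap, Ticam1 and Irak3 held 0 matches, where 8.46% of the 32851 promoter windows read here held at least 1. The AP-1 pattern TGANTCA had 0 matches in the 7 windows, against 7.81% of all windows. The letters GAGGAA, the core bound by the myeloid factor PU.1, matched once in the Ticam1 window and once in the Irak3 window of start 2, against 28.3% of all windows. Tlr2 differed by 0.23 between treatments and Irak3 by 0.61, and neither passed (limma adjusted p = 0.487 and 0.265). Any link between motif matches and the differences between treatments was not tested.

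The other genes of the pathway were read by list, each set beside the shares of everything tested at an unadjusted p under 0.05 (limma), 8.73% higher and 12.9% lower. No gene of these lists passed the adjusted threshold with all 6 arrays. Of the other Toll-like receptors 8 of 10 were tested, Tlr8 and Tlr11 being too dim, with a median difference of -0.19, 1 higher and 1 lower at that p. The median was -0.07 without antithrombin mouse 3. Tlr1, which pairs with TLR2 for triacylated lipopeptides, lay at 0.25, 0.67 and -0.14 in the saline mice and at 1.27, 0.79 and 1.33 in the antithrombin mice. Its groups did not overlap, and the difference was 0.87 (SE 0.24; adjusted p = 0.159), with 0.87 on a second probe. Without saline mouse 2 Tlr1 differed by 1.07 and passed (adjusted p = 0.0408). Tlr7, an endosomal receptor for single-stranded RNA, lay at 1.16, 0.96 and 1.05 in the saline mice and at 0.94, 0.34 and 0.25 in the antithrombin mice. Every antithrombin mouse was below every saline mouse, by a small margin for antithrombin mouse 1, with a difference of -0.55 (SE 0.20; adjusted p = 0.193) and -0.52 on a second probe. Without saline mouse 2 Tlr7 differed by -0.60 and did not pass (limma adjusted p = 0.142). Tlr12, a receptor for profilin of protozoa, differed by -0.31 (adjusted p = 0.31).

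Chaperones and accessory proteins of Toll-like receptors had a median difference of 0.24 over 7 of 8 genes tested, all but Bpi, and at an unadjusted p under 0.05 the count was 1 higher and 0 lower. Cnpy4, an endoplasmic reticulum protein that affects surface delivery of Toll-like receptors, lay at -0.13, 0.02 and -0.45 in the saline mice and at 0.22, 0.14 and 0.14 in the antithrombin mice. The antithrombin mice were all higher, by 0.35 on average (SE 0.14; limma adjusted p = 0.224). Hsp90b1, the chaperone gp96 needed for folding of most Toll-like receptors, differed by 0.24 (adjusted p = 0.303) and Unc93b1, which escorts the endosomal receptors, by 0.25 (adjusted p = 0.346). The mean level of the list relative to the saline mean was 0.11 to 0.30 in the antithrombin mice and -0.03 to 0.03 in the saline mice, so the list score did not overlap. Taken singly, 10.7% of everything tested was apart in that direction, but how often a mean of 7 genes is apart was not computed. The median difference was 0.12 without antithrombin mouse 1.

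Below the adaptors, the MYD88 branch of kinases and ubiquitin enzymes had a median difference of -0.07 over 16 of 16 genes, and at an unadjusted p under 0.05 the count was 0 in each direction. Tab1, a partner of the kinase TAK1, lay at 1.71, 1.62 and 1.84 in the saline mice and at 1.52, 1.47 and 1.43 in the antithrombin mice, lower in each, with a difference of -0.25 (SE 0.11; limma adjusted p = 0.238). The ubiquitin ligase gene Peli2 differed by -0.50 (adjusted p = 0.287) and Ikbkg, the regulatory subunit of the I-kappa-B kinase, by -0.27 (adjusted p = 0.315), although other Ikbkg probes gave 0.01, -0.59 and 0.80. The mean level of this list relative to the saline mean was -0.10 to -0.05 in the antithrombin mice and -0.04 to 0.03 in the saline mice, again without overlap. The list median of -0.07 lay near the -0.05 of everything tested. Taken singly, 18.1% of everything tested was apart in that direction. How often a mean of 16 genes is apart was not computed, so whether the separation is particular to this list was not tested. The TRIF branch had a median of 0.12 over 8 of 8 genes, with 1 higher and 0 lower. That gene was Ikbke, a kinase that acts on interferon regulatory factors. It lay at -0.18, 0.68 and -0.19 in the saline mice and at 0.89, 0.74 and 0.54 in the antithrombin mice. As for Irak3, saline mouse 2 lay among the antithrombin mice and the other saline mice were below. The Ikbke difference was 0.62 (SE 0.25; adjusted p = 0.223), and without saline mouse 2 it was 0.91 and passed (adjusted p = 0.0293). Irf3, a transcription factor of this branch, differed by 0.15 (adjusted p = 0.477), and Ticam2, the bridging adaptor TRAM, by 0.56 with signal well above background on 3 arrays (adjusted p = 0.5).

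The other inhibitors of Toll-like receptor signalling, Irak3 apart, had a median of 0.00 over 12 of 12 genes, and at an unadjusted p under 0.05 the count was 1 higher and 2 lower. Tollip, an adaptor that dampens signalling of Toll-like and interleukin-1 receptors, lay at 2.69, 2.72 and 2.77 in the saline mice and at 2.53, 2.49 and 2.23 in the antithrombin mice. Every antithrombin mouse was below every saline mouse, with a difference of -0.31 (SE 0.12; limma adjusted p = 0.206), opposite in sign to Irak3. Atf3, a transcription factor that restrains Toll-like receptor targets, lay at -0.23, 1.00 and -0.30 in the saline mice and at 1.36, 1.39 and 1.81 in the antithrombin mice. Its groups did not overlap, with saline mouse 2 nearest the antithrombin mice, and it had the smallest p of the list, with a difference of 1.37 (SE 0.36; adjusted p = 0.156). Without saline mouse 2 Atf3 differed by 1.79 and passed (adjusted p = 0.0243). Dusp1, a phosphatase that shuts off MAP kinases, differed by -0.68 (SE 0.18; adjusted p = 0.157), with every antithrombin mouse below every saline mouse. Without saline mouse 2 Tollip differed by -0.32 and Dusp1 by -0.65, and neither passed (limma adjusted p = 0.173 and 0.107). The list thus held genes with differences in each direction, and its median ran from -0.03 to 0.06 when each mouse was left out.

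**Figure D4:**
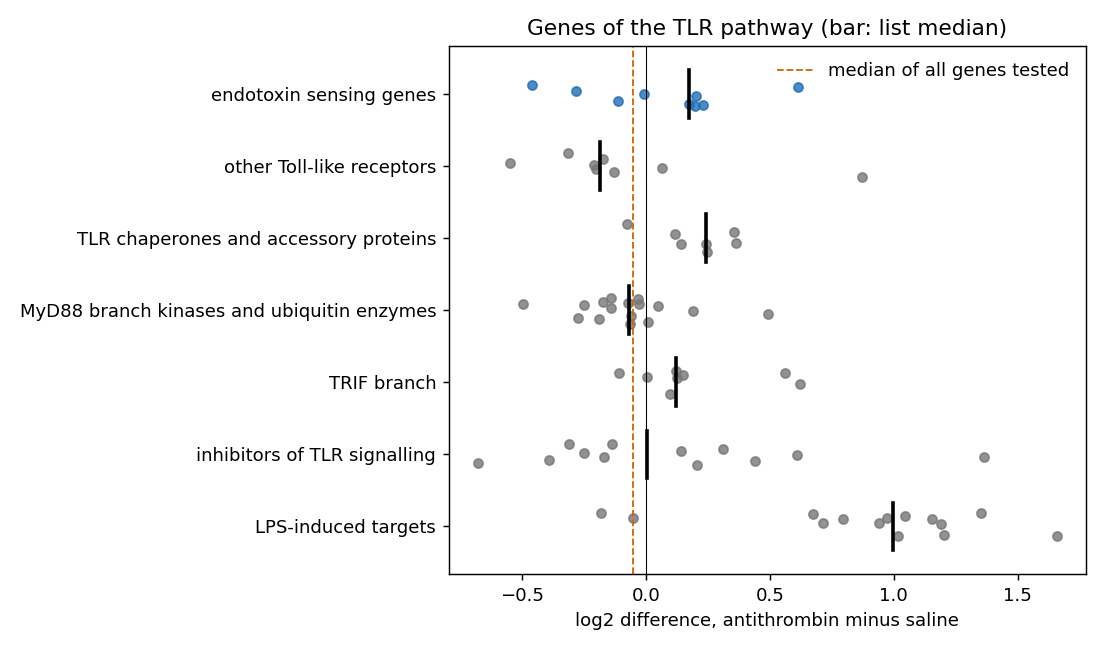
Log2 difference, antithrombin minus saline, of each tested gene of the 9 endotoxin sensing genes (blue) and of 6 other lists of the pathway (grey), with a bar at the median of each list and a dashed line at the median of everything tested, -0.05. The list medians lie between -0.19 and 0.24 except that of the lipopolysaccharide-induced targets, at 0.99.

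Genes that lipopolysaccharide induces had a larger median difference than the 9 receptor, adaptor and inhibitor genes. Of 15 such targets 14 were tested, all but Ifnb1, which was well above background on fewer than 3 arrays. Their median difference was 0.99, against 0.17 for the 9 genes. At an unadjusted p under 0.05 (limma), 11 of the 14 were higher and none was lower, and 0 passed the adjusted threshold. The targets named were the chemokine genes Ccl2 (1.20), Ccl3 (1.04) and Cxcl10 (0.97), and their list overlaps with cytokines already known to be high in these arrays, so it is no independent evidence of a direction. Without saline mouse 2, 9 of the 14 targets passed the adjusted threshold as higher, where 4.65% of everything tested did. Among them were Ccl2 (1.33, limma adjusted p = 0.0243), Ccl3 (1.20, adjusted p = 0.0281) and Cxcl10 (0.72, adjusted p = 0.0442). The median of the targets was then 1.22 and that of the 9 genes 0.21. The difference between these medians itself was not tested.

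Markers of myeloid cells, which carry these receptors, were read on the same arrays, and none passed the adjusted threshold with all 6 mice. Without saline mouse 2, 3 of 11 neutrophil markers and 1 of 12 monocyte and macrophage markers passed it as higher (limma), where 4.65% of everything tested did. Of the 8 alveolar macrophage markers 0 passed in that fit. Neutrophil markers had a median difference of 0.50 over 11 of 12 genes, all but Ly6g, which no probe named, and at an unadjusted p under 0.05 (limma) the count was 5 higher and 0 lower. Their mean level relative to the saline mean lay between 0.54 and 0.63 in the antithrombin mice, and at -0.20, 0.35 and -0.15 in saline mice 1, 2 and 3. Saline mouse 2 was thus the highest saline mouse on this list, as it was for Irak3, whose levels on the same scale were -0.14, 0.64 and -0.51 in the saline mice and 0.82, 0.53 and 0.49 in the antithrombin mice. The brightest neutrophil markers, S100a8 and S100a9, differed by 0.29 and 0.14, neither below an unadjusted p of 0.05. Monocyte and macrophage markers had a median of 0.23 over 12 of 12 genes, with 3 higher and 0 lower, and mean levels of -0.16 to 0.18 in the saline mice and 0.16 to 0.49 in the antithrombin mice. Without antithrombin mouse 1 that median was 0.09. In this list 9 of the 12 differences were positive, where 43% of everything tested was. Its 2 brightest genes were Csf1r, which differed by 0.16 and by -0.07 on another probe, and Ly6c2, which differed by -0.18. Alveolar macrophage markers had a median of -0.00 over 8 genes, which ran from -0.14 to 0.10 when each mouse was left out. Of the 8 differences 4 were positive, and at an unadjusted p under 0.05 (limma) the count was 1 higher and 0 lower. The 2 brightest genes of the list, Chil3 at -0.05 and Marco at -0.54, were both negative and do not stand for the rest. Every tested marker of these lists was well above background on at least 3 arrays, and the part of any of these cells in the values of the 9 genes was not tested.

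For markers of other lung cells the median difference was -0.14 over 10 endothelial markers, of which 1 was lower at an unadjusted p under 0.05, and -0.22 over 7 of 8 alveolar type 1 markers, of which 3 were lower. It was -0.01 over 8 alveolar type 2 markers, 0.22 over 7 fibroblast markers, 0.27 over 5 of 6 B cell markers and -0.23 over 6 T cell markers. Single mice moved several of these medians: the B cell median was -0.08 without antithrombin mouse 3, the fibroblast median 0.09 without saline mouse 2, the T cell median -0.12 without saline mouse 1, the endothelial median -0.05 without antithrombin mouse 1 and the alveolar type 1 median -0.13 without saline mouse 2. The alveolar type 2 median ran from -0.06 to 0.06 when each mouse was left out. Without saline mouse 2, 3 of the 7 alveolar type 1 markers and 1 of the 7 fibroblast markers passed the adjusted threshold as lower (limma). Over everything tested, 1907 of 32453 did so in that fit. The mean level of the endothelial markers relative to the saline mean lay between -0.14 and 0.08 in the saline mice and between -0.31 and -0.08 in the antithrombin mice, so the groups overlapped. Endothelial cells of the lung are known to express Tlr4, and their part in the Tlr4 value was not tested.

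**Figure D5:**
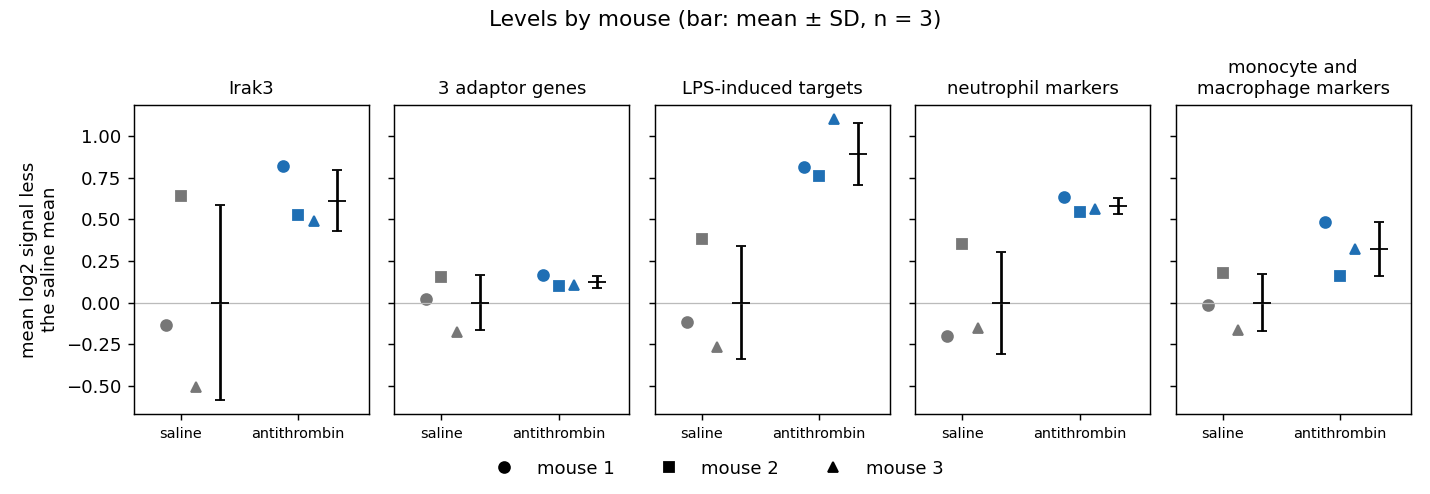
Mean log2 signal less the saline mean, 1 point per mouse, for Irak3, the 3 adaptor genes, the lipopolysaccharide-induced targets, and the markers of neutrophils and of monocytes and macrophages, with bars at the mean ± SD of 3 mice. Saline mouse 2 is the highest saline mouse in all 5 panels, from 0.15 for the adaptors to 0.64 for Irak3.

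The genes whose pattern over the 6 arrays was most like that of 4 of the 9 genes were found by the root mean square difference of log2 values, each gene centred on its own mean, among 17505 named genes. For Irak3, whose own root mean square about its mean was 0.468, the nearest were Lrrc25 (0.0689), Mcph1 (0.0713) and Slc11a1 (0.0779). These 3 shared the low saline mice 1 and 3 and the high saline mouse 2 of Irak3, and their own differences were 0.60, 0.55 and 0.58. For Tlr4, at 0.125, the nearest were Impa1 (0.0247), Rpa3 (0.0250) and Atp5g1 (0.0299), which were lowest in saline mouse 3. For Cd14, at 0.107, they were 1700028B04Rik (0.0222), Sdhd (0.0234) and Rwdd1 (0.0258), which were highest in saline mouse 2. For Tirap, at 0.0483, they were Jsrp1 (0.0152), Fbxw4 (0.0181) and Sirt6 (0.0190). Such lists describe 6 arrays, and with so many genes compared a close match is easily found for a gene that varies little.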

How the data were processed

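Lung RNA of 6 mice was labelled with Cy3 and hybridised to one-colour Agilent arrays, all on 1 slide in 1 scan, with treatment and mouse number read from each sample's title. The scanner files deposited by the authors give an intensity for each spot, made with Agilent Feature Extraction 10.7.3.1 per the file headers. The submitters' processing notes name Agilent Feature Extraction 9.1, and the difference was not resolved. The deposited value table holds log2 values, which matched log2 of the processed signal within 0.01 for 100% of 56562 probes once an offset for each probe and one for each array were removed. Its column medians ran from -0.0369 to 0.0763, and the origin of the probe offset and the scaling of its arrays are unknown. The probe offset cancels in differences.

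Control spots were left out, which kept 59305 spots on each array. Of these, 78 to 113 outlier spots per array were then dropped, and the rest were averaged to 56605 probes. From log2 of the processed signal the 75th percentile of the array was then subtracted. Accessions were matched without version to RefSeq transcripts of GRCm38.p6, by which 32994 probes had a gene name and 23611 had none here. Each gene was represented by its brightest probe and tested where at least 3 arrays showed it well above background. The test was the two-sided moderated test of limma 3.58.1 (lmFit, eBayes), run in R 4.3.3. Its p-values were adjusted over 32456 tests by Benjamini-Hochberg, with a threshold of 0.05. The procedure was tested on simulated data. Other probes were tested singly.

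The 9 genes and all lists were chosen with earlier results of these data known. The text names the 9 genes, the 3 genes of each pathway list with the smallest p, at most 2 of the brightest genes of a marker list, and the 3 genes nearest in pattern to Tlr4, Cd14, Irak3 and Tirap. A list score is the mean over genes of log2 signal less the saline mean. Alternatives were other background corrections, normalisations, filters, probe rules and variance models, the value table, array weights, the mouse number or array row as a block, and leaving out each mouse. For normexp, medians of spot and local background pixels served, since the files used here have no mean signal column. The fit of single probes without saline mouse 2 was added after seeing the data. Figures were drawn with matplotlib 3.10.9.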

Additional observations from a re-analysis of the deposited data

How the results depend on the processing

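The 9 differences under 18 alternatives gave 162 values, of which 156 kept their sign and side of the threshold, though not always their size. The sign differed in 5, all of Tirap, which was 0.0142 with array weights, 0.0101 with median scaling, 0.0117 with quantile normalisation and between -0.0394 and 0.0265 when each mouse was left out. Irak3 passed in the remaining value, without saline mouse 2, and its difference ran from 0.36 to 0.93 when each mouse was left out. Over the same fits Tlr4 ran from 0.15 to 0.26, Cd14 from -0.17 to -0.05, Ly96 from -0.66 to -0.28, Lbp from -0.41 to -0.12, Tlr2 from 0.06 to 0.33, Myd88 from 0.09 to 0.31 and Ticam1 from 0.05 to 0.26. The least values of Tlr2, Myd88, Ticam1 and Irak3 came without saline mouse 3, and that of Lbp in size without antithrombin mouse 3. The median of the 9 genes ran from 0.0532 to 0.21 when each mouse was left out and was 0.0141 with the mean of detected probes, where Tlr4 was 0.0141 and Ly96 -0.20. Of the list medians, the MYD88 branch ran from -0.11 to -0.04, the TRIF branch from 0.07 to 0.17, the chaperones from 0.12 to 0.30 and the hepatocyte genes from -0.58 to -0.03 when each mouse was left out. At an unadjusted p under 0.05 (limma), 1 of the 9 genes was higher with array weights (Irak3) and 1 with normexp background correction (Tlr4). With a trended and robust variance 1 was lower (Ly96). Leaving out each mouse gave 0 to 1 higher and 0 to 2 lower, the last without antithrombin mouse 2 (Ly96 and Lbp). Shares over everything tested are not given for these fits, so the counts are not read as a result about the 9 genes. In the main fit those shares were 8.73% higher and 12.9% lower.

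Over everything tested, the count higher at an adjusted p under 0.05 (limma) was 1, and it was 1114 with array weights and between 0 and 1508 when each mouse was left out. It was 0 with all probes singly, the array row as a block, median scaling, no filter, normexp, quantile normalisation, a trended and robust variance, the filter on all 6 arrays, and the mouse number as a replicate block. The count lower was 1, and it was 1451 with array weights, 0 with the replicate block and 0 to 1907 when each mouse was left out. Mouse numbers were not used as pairs in the main fit. Deviations from the group means of same-numbered mice correlated at -0.00957, -0.164 and -0.276, none of them positive. These 3 values, with no others set beside them, cannot settle whether the mice were paired. The replicate block changed no call among the 9 genes. With 3 mice a group the intervals were wide, and a difference that did not pass is no evidence that the treatments were equal.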
